A study of Mus musculus with 6 samples.

Results

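AMP-activated protein kinase (AMPK) and the kinases that switch it on were followed through 10 genes, taken by name from the deposited table of 55414 genes: 6 genes for AMPK subunits, 3 for the LKB1 complex and 1 for a second upstream kinase. All 10 were present once, and all 10 passed the filter on low counts. Messenger RNA was sequenced from liver natural killer (NK) cells of wild-type (WT) mice on day 3, in 3 libraries from mice given metformin at 200 mg per kg for 3 days and 3 libraries from control mice given phosphate-buffered saline (PBS). Metformin lowers blood glucose, blocks complex I of the respiratory chain and is widely used to activate AMPK. The sources used here give neither the age and sex of the mice nor how NK cells were isolated. They also do not say that each library came from a separate mouse, so the p-values rest on a spread between libraries that may be technical.

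AMPK is a heterotrimer of a catalytic α subunit, a scaffolding β subunit that can bind glycogen and a γ subunit that senses AMP, ADP and ATP, and each comes from several genes. When energy is short, AMP binding favours phosphorylation of the α subunit's activation loop by LKB1, which is active in a complex with the pseudokinase STRAD and the scaffold MO25, or by CaMKK2 in response to calcium. In lymphocytes α1 is known as the main catalytic form, whereas α2 is prominent in muscle and is also made in hepatocytes. The comparison asked which of these isoforms liver NK cells transcribe and whether transcript levels differed after metformin. Kinase activity and phosphorylation, by which AMPK is chiefly controlled, were not measured.

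Promoter sequences are shown for the α and β pairs, which had the widest gaps in level between isoforms, so that a scarce and an abundant member of the same family can be read side by side. Each runs 5′ to 3′ on the gene's strand from 250 bases before to 50 bases after the annotated start (RefSeq, GRCm38.p6), with every CG dinucleotide in capitals. The windows are chr15:5143611-5143910 (plus strand) for Prkaa1, chr4:105109849-105110148 (minus strand) for Prkaa2, chr5:116024379-116024678 (minus strand) for Prkab1 and chr3:97657962-97658261 (plus strand) for Prkab2.
Prkaa1: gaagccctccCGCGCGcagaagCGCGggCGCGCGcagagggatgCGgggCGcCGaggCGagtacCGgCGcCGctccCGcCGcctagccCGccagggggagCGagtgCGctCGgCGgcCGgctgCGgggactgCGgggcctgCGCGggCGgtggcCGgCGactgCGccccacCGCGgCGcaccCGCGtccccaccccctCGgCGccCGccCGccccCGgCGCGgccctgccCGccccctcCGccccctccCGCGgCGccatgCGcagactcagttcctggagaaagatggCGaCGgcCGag
Prkaa2: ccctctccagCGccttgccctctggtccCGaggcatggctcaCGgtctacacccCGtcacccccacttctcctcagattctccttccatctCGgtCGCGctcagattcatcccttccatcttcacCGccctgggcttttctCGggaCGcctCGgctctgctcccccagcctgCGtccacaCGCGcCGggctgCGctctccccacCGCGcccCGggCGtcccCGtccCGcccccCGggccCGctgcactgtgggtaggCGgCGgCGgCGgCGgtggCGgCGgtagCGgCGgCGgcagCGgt
Prkab1: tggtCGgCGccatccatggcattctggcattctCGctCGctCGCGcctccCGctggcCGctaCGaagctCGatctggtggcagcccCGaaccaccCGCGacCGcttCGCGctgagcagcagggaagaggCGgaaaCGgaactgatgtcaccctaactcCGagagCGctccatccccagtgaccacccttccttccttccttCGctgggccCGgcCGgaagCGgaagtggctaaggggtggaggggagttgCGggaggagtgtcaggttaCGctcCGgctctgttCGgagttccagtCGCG
Prkab2: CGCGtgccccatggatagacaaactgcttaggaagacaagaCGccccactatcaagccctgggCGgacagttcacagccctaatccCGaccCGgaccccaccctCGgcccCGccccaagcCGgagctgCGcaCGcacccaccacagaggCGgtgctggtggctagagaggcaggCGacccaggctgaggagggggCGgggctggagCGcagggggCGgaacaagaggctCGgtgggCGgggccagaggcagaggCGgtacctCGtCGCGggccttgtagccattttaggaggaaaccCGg

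The Prkaa1 window held 52 CG dinucleotides, a number reached by 0.575% of the 32851 promoters of this length. The Prkaa2 window held 35 (reached by 6.95% of promoters), and Prkaa2 had the lowest mean TPM of the 10 genes. A relation between CG number and transcript level was not tested. For the β pair the numbers were 30 in Prkab1 and 23 in Prkab2, reached by 11.7% and 21.5% of promoters. Over the 10 genes RefSeq lists 12 promoters, of which 11 held at least the median of 7 CG. The exception was 1 of the 3 promoters of Prkag2, with 6. CG reads the same on both strands, and 94.6% of all promoters hold at least 1. The core motif CCGGAAG, known as a binding sequence of ETS factors and itself containing CG, occurred on either strand in 2 of the 12 windows, those of Prkab1 and Prkag1, and in 8.86% of all promoters.

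Liver NK cells transcribed α1 almost alone among the catalytic subunits. Levels between genes are compared in TPM, transcript abundances that the authors scaled for transcript length and to the same total in each library. Prkaa1, the gene of α1 (chromosome 15, 5173343 to 5211380), had 25.05, 25.04 and 16.8 TPM in the metformin libraries 1, 2 and 3, against 24.6, 25.9 and 26.8 TPM in the PBS libraries 1, 2 and 3. Prkaa2, the gene of α2 (chromosome 4, 104887071 to 104967087), had 0.073, 0.202 and 0.049 TPM with metformin, against 0.089, 0.070 and 0.252 TPM with PBS. Behind these Prkaa2 values stood 6 to 34 estimated reads per library, too few to resolve a difference between the groups. Prkaa1 exceeded Prkaa2 in 6 of 6 libraries, by 6.82 ± 0.42 on the scale of log2(TPM + 0.1) (SD, n = 6; two-sided exact sign permutation p = 0.031, the smallest that 6 pairs can give, and 0.031 adjusted over the 3 families). Because Prkaa2 lay near the pseudocount, the size of this difference depended on it: 4.47 on log2(TPM + 1), and 7.66 on estimated counts per kilobase. In bulk RNA fewer cells that carry a transcript and less of it per cell cannot be told apart. Hepatocyte markers, 12 genes such as albumin, summed to 281 to 673 CPM (estimated reads relative to library size, not scaled for length) in the metformin libraries and to 241 to 370 CPM in the PBS libraries, with the highest sum in metformin 3, where Prkaa2 was lowest. The part of hepatocyte RNA in the Prkaa2 reads was not tested.

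Among the scaffold subunits β1 dominated. Prkab1 (chromosome 5, 116151645 to 116162567) had 125, 120 and 110 TPM with metformin, against 112, 124 and 130 TPM with PBS, and the groups overlapped. Prkab2, the gene of β2 (chromosome 3, 97565509 to 97581128), had 2.07, 3.99 and 2.05 TPM with metformin, against 4.94, 4.43 and 4.57 TPM with PBS, so that every metformin library was below every PBS library. The β1 transcript exceeded β2 in 6 of 6 libraries, by 5.07 ± 0.55 on the scale of log2(TPM + 0.1) (SD, n = 6; two-sided exact sign permutation p = 0.031).

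The nucleotide-sensing subunits were less one-sided. Prkag1, the gene of γ1 (chromosome 15, 98710678 to 98729402), had 111, 123 and 119 TPM with metformin, against 112, 121 and 131 TPM with PBS. Prkag2, the gene of γ2 (chromosome 5, 25067742 to 25305640), had 20.2, 22.7 and 26.1 TPM with metformin, against 28.3, 31.4 and 27.2 TPM with PBS, and no metformin library reached the PBS range on this scale. Prkag1 exceeded Prkag2 in 6 of 6 libraries, by 2.21 ± 0.22 on the scale of log2(TPM + 0.1) (SD, n = 6; two-sided exact sign permutation p = 0.031). The third γ gene, Prkag3, typical of skeletal muscle and outside the 10 genes, was listed at 0 in all 6 libraries. In each of the 6 libraries Prkaa1, Prkab1 and Prkag1, the genes of α1, β1 and γ1, therefore had the highest TPM of their family.

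**Figure D1:**
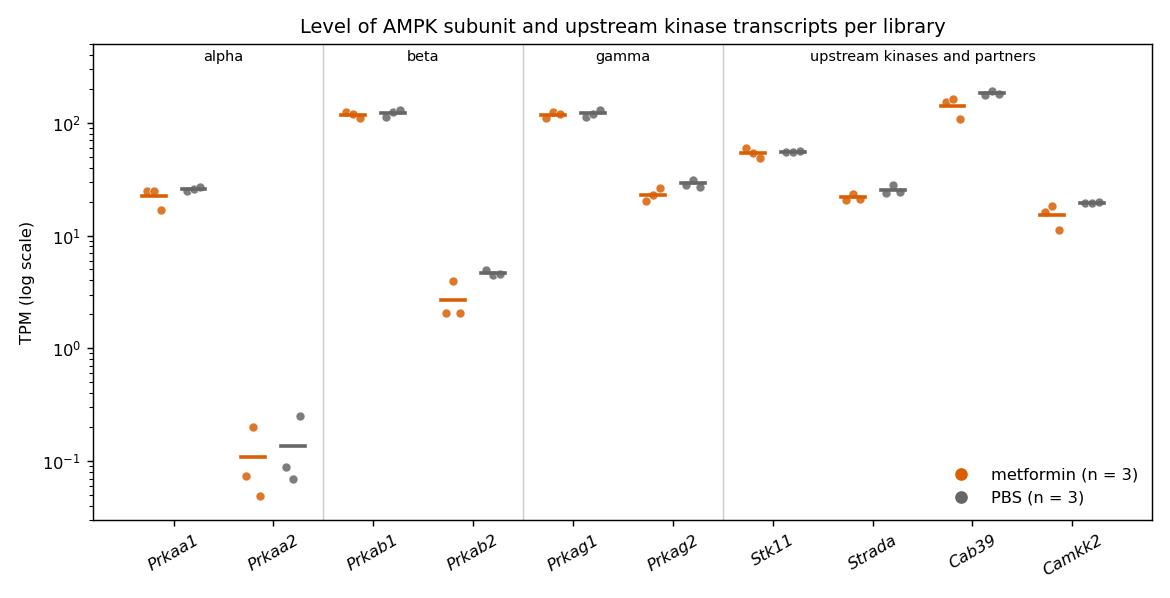
TPM of the 10 genes on a log axis, with a point for each library (replicates 1 to 3 from left to right), metformin left of PBS, and a bar at the mean of 3 libraries. In the α, β and γ panels the first gene lies above the second in all 6 libraries, and Prkaa2 stays at or below 0.252 TPM.

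Summed over both isoforms, the α transcripts were the scarcest of the 3 families. The α sum averaged 22.4 ± 4.83 TPM with metformin and 25.9 ± 1.16 TPM with PBS, the β sum 121 ± 7.93 TPM with metformin and 126 ± 9.10 TPM with PBS, and the γ sum 141 ± 8.20 TPM with metformin and 150 ± 9.27 TPM with PBS (SD, n = 3 each). Across all 6 libraries the α sum lay between 16.8 and 27.0 TPM, below the lowest β sum of 112 TPM.

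LKB1 itself was moderately transcribed, and its scaffold had the highest mean TPM of the 10 genes, though in metformin 3 it was below Prkab1 and Prkag1. Stk11, the gene of LKB1 (chromosome 10, 79951637 to 79966516), had 59.8, 53.7 and 48.4 TPM with metformin, against 55.1, 55.0 and 55.8 TPM with PBS; the metformin libraries lay on both sides of the PBS libraries. Strada, the gene of the pseudokinase STRADα (chromosome 11, 106054156 to 106092994), had 20.7, 23.6 and 21.1 TPM with metformin, against 24.0, 28.3 and 24.2 TPM with PBS. Cab39, the gene of the scaffold MO25α (chromosome 1, 85721162 to 85779297), had 153, 161 and 108 TPM with metformin, against 177, 192 and 181 TPM with PBS, and the groups did not overlap. Within the complex, Cab39 stood at 2.22 to 3.00 times the TPM of Stk11 with metformin and at 3.22 to 3.49 times with PBS. Stk11 stood at 2.28 to 2.89 times the TPM of Strada with metformin and at 1.94 to 2.30 times with PBS.

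Camkk2, the gene of the calcium-activated kinase CaMKK2 (chromosome 5, 122869233 to 122917472), had 16.1, 18.4 and 11.2 TPM with metformin, against 19.4, 19.6 and 19.8 TPM with PBS. All these coordinates are those of the deposited table, for which the submitters' processing notes name GRCm39 and mm10 without saying which applies. The promoter windows printed above, on GRCm38.p6, lie outside the deposited spans of their genes. For Prkaa1 the window ends at 5143910, whereas the deposited gene starts at 5173343. The deposited positions are therefore not on GRCm38.p6 and cannot be laid over the windows.

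In order of mean TPM over 6 libraries the 10 genes were Cab39, Prkab1, Prkag1, Stk11, Prkag2, Prkaa1, Strada, Camkk2, Prkab2 and Prkaa2. Prkab1 and Prkag1 could not be ranked, since Prkab1 was above Prkag1 in 3 of 6 libraries, and the ranges of Prkag2, Prkaa1 and Strada overlapped each with the next. Cab39 was above Prkab1 in 5 of 6 libraries. Neighbours with ranges that did not overlap were Prkag1 and Stk11, Stk11 and Prkag2, Strada and Camkk2, Camkk2 and Prkab2, and Prkab2 and Prkaa2. Among the 15527 genes tested, Cab39 had a higher mean TPM than 92.7% of genes, Prkag1 than 89.5%, Stk11 than 77.5%, Prkaa1 than 60.1%, Prkab2 than 29.0% and Prkaa2 than 0.341%.

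Within a family, the minor isoforms Prkab2 and Prkag2 took smaller mean shares after metformin, though neither difference could pass a test of this size. Prkab2 made up 1.63%, 3.22% and 1.84% of β TPM with metformin, against 4.23%, 3.46% and 3.39% with PBS. For Prkag2 the shares of γ TPM were 15.4%, 15.6% and 18.1% with metformin, against 20.2%, 20.6% and 17.2% with PBS. The β shares did not overlap between the groups, and the γ shares did. Accordingly the Prkab1 share was higher by 1.47 percentage points (97.8% ± 0.86 with metformin, 96.3% ± 0.47 with PBS; SD, n = 3 each; two-sided exact permutation p = 0.1, adjusted over 3 families p = 0.3). The Prkag1 share was higher by 3.02 percentage points (83.7% ± 1.49 with metformin, 80.7% ± 1.85 with PBS; two-sided exact permutation p = 0.2, adjusted p = 0.3), and by 1.79 points when estimated counts per kilobase of deposited gene length replaced TPM. Prkaa1 made up 99.5% ± 0.29 of α TPM with metformin and 99.5% ± 0.36 with PBS (exact permutation p = 0.7). With 3 against 3 libraries the smallest two-sided p is 0.1.

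**Figure D2:**
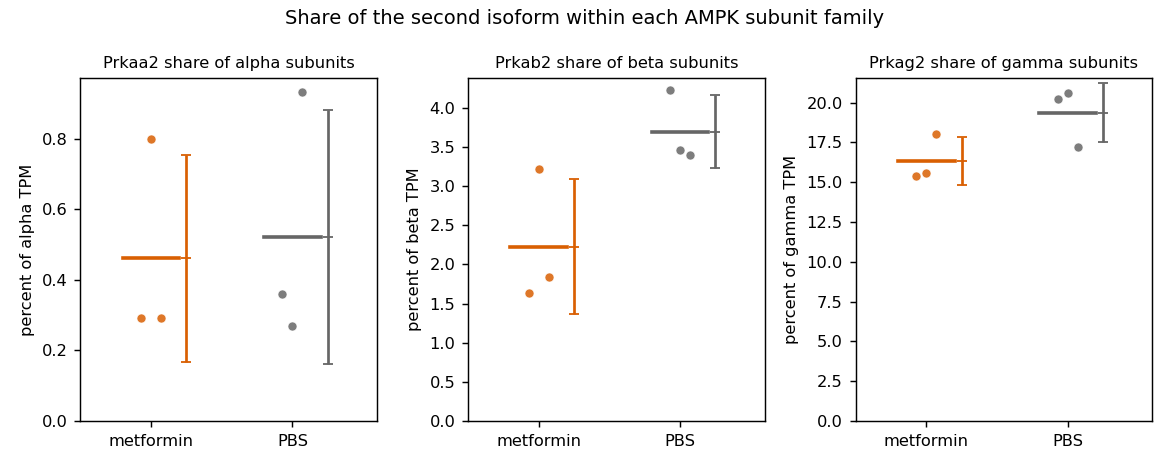
Percent of a family's TPM taken by the second isoform in each library, metformin left of PBS, with a wide bar at the mean and error bars of 1 SD (n = 3); each axis starts at 0 and has its own scale. Prkab2 lies at 1.63% to 3.22% of β TPM with metformin and at 3.39% to 4.23% with PBS, while the Prkaa2 and Prkag2 points of the groups overlap.

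Differences between the groups were tested on estimated read counts with edgeR's quasi-likelihood test, and none of the 10 genes passed. At an adjusted p of 0.05 edgeR called 0 of 10 and 0 of all 15527 genes tested (0.0%), DESeq2 called 299 genes (1.93%), limma-voom with sample quality weights 36 (0.232%) and limma-voom 0, none of them among the 10. DESeq2 gave no adjusted p for Prkaa2. Without adjustment, 2 of the 10 had an edgeR p under 0.05, both lower with metformin, against 10.4% of all genes tested (5.08% lower and 5.29% higher). The numbers among the 10 were also 2 lower and 0 higher with DESeq2 and with limma-voom without and with weights, and the 2 genes with edgeR were Prkab2 and Cab39. Log2 fold changes were negative for 7 of the 10 genes, with a median of -0.12, against 49.1% of all genes and a median of 0.0053.

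Prkab2 had the smallest p of the 10. Scaled for library composition, its values were 6.26, 11.2 and 7.98 CPM with metformin, against 14.1, 13.1 and 13.5 CPM with PBS. All 3 metformin libraries lay below all 3 PBS libraries, as for 9.63% of all genes tested (9.49% lay wholly above), and the metformin libraries were the more spread out. The means were 8.49 ± 2.52 CPM with metformin and 13.6 ± 0.51 CPM with PBS (SD, n = 3 each), or -0.68 as a log2 fold change (SE 0.23; edgeR adjusted p = 0.42), which ranks 718 by p among the genes tested. The estimate ran from -0.94 without metformin 2 to -0.51 without metformin 1.

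Cab39 was the other gene of the 10 without overlap in CPM. It had 316, 337 and 253 CPM with metformin, against 380, 383 and 349 CPM with PBS. Means of 302 ± 44.1 CPM with metformin and 371 ± 18.9 CPM with PBS corresponded to -0.30 as a log2 fold change (SE 0.12; edgeR adjusted p = 0.472). Metformin 3 was the lowest of the 6 libraries, and without it the log2 fold change was -0.19. Its paralogue Cab39l, which encodes MO25β and was not among the 10, had 63.2, 59.9 and 59.8 CPM with metformin, against 69.5, 79.3 and 69.6 CPM with PBS (log2 fold change -0.26, SE 0.10; edgeR adjusted p = 0.458).

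Prkaa1 averaged 59.8 ± 8.98 CPM with metformin and 65.8 ± 1.18 CPM with PBS (log2 fold change -0.14, SE 0.13; edgeR adjusted p = 0.71). The metformin mean was set apart by a single library: metformin 3 had 49.4 CPM and the other 5 libraries 64.7 to 67.1 CPM. Without metformin 3 the log2 fold change of Prkaa1 was -0.03.

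The remaining genes had log2 fold changes of at most 0.27 in size, and their groups overlapped in CPM. Prkag2 averaged 32.4 ± 4.17 CPM with metformin and 36.4 ± 3.44 CPM with PBS (log2 fold change -0.17, SE 0.13; edgeR adjusted p = 0.671; -0.28 without metformin 3, -0.11 without metformin 2 and -0.09 without PBS 2). For Prkab1 the log2 fold change was 0.09 (SE 0.09) and for Prkag1 0.05 (SE 0.10). Stk11 averaged 67.7 ± 7.71 CPM with metformin and 64.3 ± 3.07 CPM with PBS (log2 fold change 0.07, SE 0.11), and Strada 31.7 ± 1.64 CPM with metformin and 32.6 ± 2.96 CPM with PBS (-0.04, SE 0.12). Camkk2 averaged 27.4 ± 4.52 CPM with metformin and 29.2 ± 2.25 CPM with PBS (-0.09, SE 0.15). Prkaa2, at 0.263 to 0.960 CPM with metformin and 0.328 to 1.12 CPM with PBS, had a SE of 0.73 around a log2 fold change of -0.27. The signs of Prkaa2, Prkab1, Prkag1, Stk11, Strada and Camkk2 each turned under at least 1 other setting, so no direction is given for them.

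**Figure D3:**
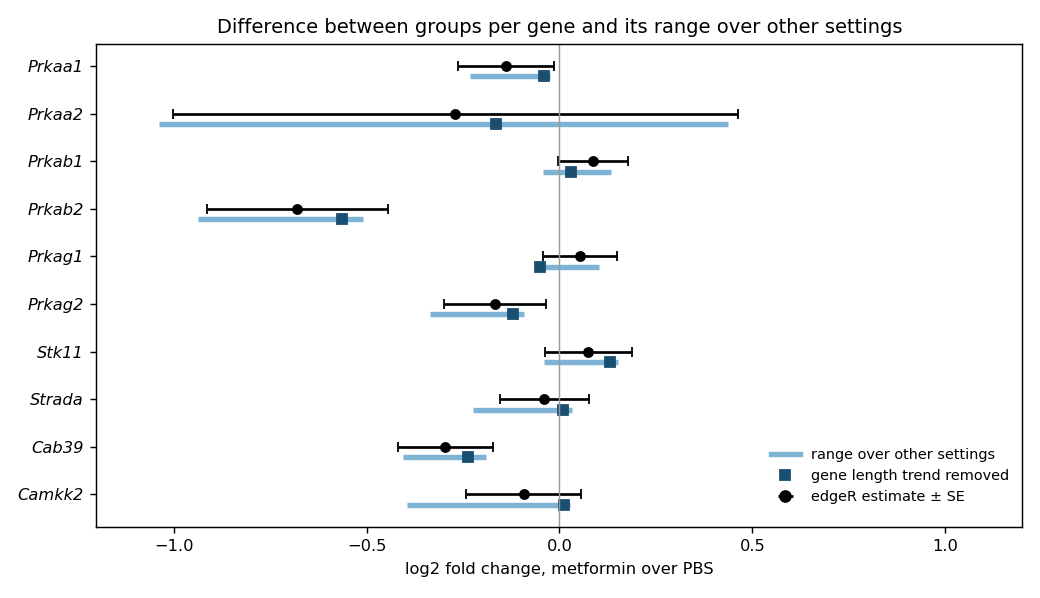
Log2 fold change of metformin over PBS for each gene as estimated by edgeR (black points, bars of 1 SE), with the range over the other settings tried as a blue band and the value after removal of the gene length trend as a square. Prkab2, Cab39, Prkag2 and Prkaa1 stay below 0 in every setting shown, with bands from -0.94 to -0.51, -0.41 to -0.19, -0.33 to -0.09 and -0.23 to -0.03.

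The scale mattered for several genes. On the deposited TPM values 5 of the 10 genes lay lower without overlap (Prkab2, Prkag2, Strada, Cab39 and Camkk2) and 0 higher, against 15.2% of all genes lower and 4.82% higher. The median log2 difference of all genes was -0.10 on log2(TPM + 0.1), so values on that scale are read against this shift. Camkk2 had a difference of -0.39 there and -0.09 on counts, and Strada -0.22 and -0.04. The ratio of counts to TPM gives the mean transcript length assumed by the authors' estimate, here as a percent of the deposited gene length after scaling each library to genes with a single transcript (for which the central 90% lay between 75.9% and 114%). For Camkk2 it was 55.0% to 58.5% with metformin and 46.6% to 51.8% with PBS, without overlap, and for Strada 63.8% to 65.2% with metformin and 60.9% to 61.8% with PBS. Stk11, at 47.4% to 54.8%, and Prkag2, at 59.2% to 67.7%, likewise lay below the range of single-transcript genes, whereas Prkaa1, Prkaa2, Prkab1, Prkag1 and Cab39 stayed between 82.3% and 97.9%. Prkag1 differed slightly without overlap, at 87.6% to 88.4% with metformin and 89.0% to 89.7% with PBS. Prkab2 stood at 91.6%, 88.7% and 109.8% in metformin 1, 2 and 3 and at 89.9% to 99.0% with PBS. The higher percent in metformin 3 goes with a lower TPM for the same count. These transcript lengths were examined after the values were seen.

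**Figure D4:**
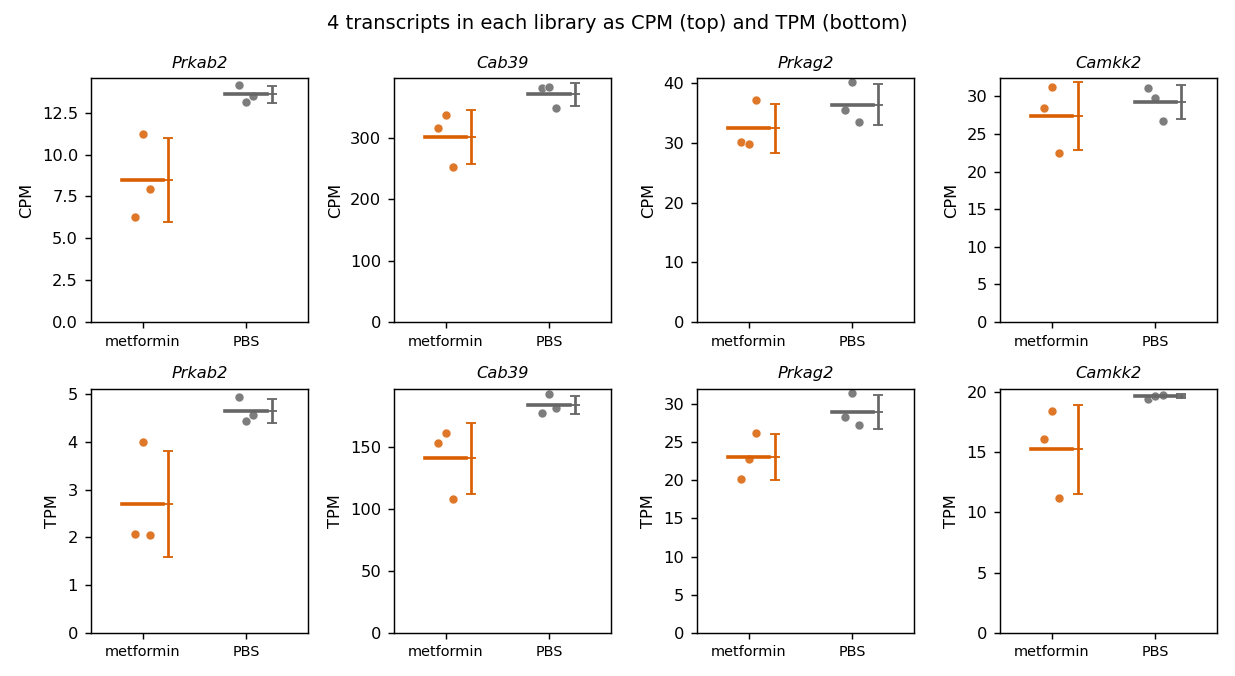
CPM (top row) and TPM (bottom row) of 4 genes in each library, metformin left of PBS, with a wide bar at the mean and error bars of 1 SD (n = 3); axes start at 0. Prkab2 and Cab39 separate on both scales, while Prkag2 and Camkk2 overlap in CPM and separate in TPM.

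The libraries also differed in depth and in a trend with gene length. Depth was 22152167 to 24266803 estimated reads in the metformin libraries and 24838302 to 30161214 in the PBS libraries. Metformin 3 was the lowest of the 6 libraries in 5 of the 10 genes and the highest in 1. Set against the 6-library mean, its values were lower for longer genes (Spearman -0.42 across 15527 genes, which are not independent replicates), against -0.11 and 0.13 in the other metformin libraries and 0.05 to 0.33 in the PBS libraries. Prkab2, at 5006 bases, is longer than 81.6% of the genes tested and Cab39, at 3805 bases, than 65.0%. With the length trend removed, edgeR gave log2 fold changes of -0.56 for Prkab2 (adjusted p = 0.456) and -0.24 for Cab39 (adjusted p = 0.44), and -0.04 for Prkaa1. Over all 19 other settings the adjusted p ran from 0.154 to 0.758 for Prkab2 and from 0.281 to 0.801 for Cab39.

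The cells carried the NK label's markers: 12 of 12 NK marker genes were read, with sums of 22070 to 24910 CPM with metformin and 21210 to 22820 CPM with PBS. Markers of liver type 1 innate lymphoid cells, 9 genes such as Cxcr6 and Itga1, summed to 1371 to 1525 CPM with metformin and 910 to 1008 CPM with PBS. Of these 9, 8 were higher without overlap, against 9.49% of all genes tested. T cell markers (10 genes, none at 0) summed to 469 to 649 CPM with metformin and 254 to 364 CPM with PBS, and B cell markers (7 genes, none at 0) to 518 to 753 CPM with metformin and 335 to 573 CPM with PBS. Macrophage markers (10 genes, with Clec4f, which defines Kupffer cells, under 1 CPM) summed to 48.2 to 116 CPM with metformin and 34.5 to 58.3 CPM with PBS. For the other lists the sums were 12.8 to 40.5 CPM with metformin and 22.6 to 146 CPM with PBS for neutrophils, 81.2 to 104 CPM with metformin and 99.5 to 118 CPM with PBS for endothelial cells, 28.6 to 67.2 CPM with metformin and 22.4 to 174 CPM with PBS for stellate cells (Rgs5 at 0 throughout), and 62.0 to 165 CPM with metformin and 61.9 to 145 CPM with PBS for red cells. Higher without overlap were also 4 of 12 NK, 4 of 10 T cell, 3 of 10 macrophage and 1 of 12 hepatocyte markers. Lower without overlap, against 9.63% of all genes tested, were 3 NK markers and 1 macrophage marker. The part of these cell types in the values of Prkab2 and Cab39 was not tested.

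Further genes of the pathway, in 5 lists of 69 genes of which 61 were tested, did not pass either. EdgeR called 0 of the 61, as did DESeq2 and limma-voom without and with weights. Without adjustment, 4 had an edgeR p under 0.05, all lower with metformin, namely Cab39l, Sesn2, Ak3 and Ampd3, against 10.4% of all genes tested (5.08% lower). With DESeq2 the number was 5, with limma-voom 5 and with weights 4. In CPM 9 of the 61 lay lower without overlap and 1 higher, against 9.63% and 9.49% of all genes tested.

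Of 4 paralogues of the 10 genes 3 were tested, with a median log2 fold change of -0.16. Stradb, the gene of STRADβ, averaged 22.7 TPM over the 6 libraries, close to the 23.7 TPM of Strada, and Cab39l averaged 37.0 TPM, against 162 TPM for Cab39. Camkk1, which encodes the related kinase CaMKK1, averaged 8.03 TPM, against 17.4 TPM for Camkk2; its log2 fold change was -0.16 (SE 0.23; edgeR adjusted p = 0.825) and turned to 0.062 without metformin 3.

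Other regulators of AMPK, 19 genes that were all tested, had a median of -0.09. Sesn2, a stress-induced sestrin reported to act on AMPK and mTORC1, had 27.3, 29.3 and 20.8 CPM with metformin, against 39.0, 34.0 and 29.5 CPM with PBS. The metformin and PBS ranges nearly touched (log2 fold change -0.40, SE 0.17; edgeR adjusted p = 0.469). Lamtor1, a subunit of the lysosomal Ragulator complex on which AMPK can be activated, averaged 70.8 ± 10.7 CPM with metformin and 59.0 ± 2.52 CPM with PBS (log2 fold change 0.26, SE 0.12; edgeR adjusted p = 0.507; 0.13 without metformin 3). Its groups did not overlap in CPM but did in TPM, at 98.5 to 117 TPM with metformin and 92.7 to 104 TPM with PBS. Map3k7, the gene of the kinase TAK1, averaged 80.8 ± 16.3 CPM with metformin and 98.7 ± 6.96 CPM with PBS (log2 fold change -0.29, SE 0.16, edgeR adjusted p = 0.547). In TPM, metformin 1 and 2, at 48.0 and 49.2, lay above the PBS libraries (37.7 to 45.5), and metformin 3, at 18.0, lay below them. Map3k7 was chosen after its values were seen.

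LKB1 also phosphorylates a group of AMPK-related kinases, and 8 of 12 were tested, with a median of -0.10. The 4 that were not tested, Mark1, Nuak1, Brsk1 and Brsk2, had at most 15 estimated reads in any library. Sik3, a salt-inducible kinase, averaged 52.4 ± 12.5 CPM with metformin and 64.3 ± 3.499 CPM with PBS (log2 fold change -0.30, SE 0.17; edgeR adjusted p = 0.575; -0.12 without metformin 3). Nuak2 averaged 35.0 ± 3.997 CPM with metformin and 40.0 ± 3.64 CPM with PBS (-0.19, SE 0.13; adjusted p = 0.617; -0.12 without metformin 3 and also without PBS 3).

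AMPK substrates, 25 genes that were all tested, had a median of -0.07, with 0 at an unadjusted edgeR p under 0.05. Foxo3, a transcription factor of stress resistance, averaged 37.1 ± 4.32 CPM with metformin and 30.3 ± 3.78 CPM with PBS (log2 fold change 0.29, SE 0.14; edgeR adjusted p = 0.508). Its groups overlapped in CPM, with metformin 1 at 32.3 CPM and PBS 2 at 34.2 CPM, and also in TPM. The 2 acetyl-CoA carboxylase genes, classical AMPK substrates, were unequal: Acaca averaged 3.81 TPM and Acacb 0.177 TPM over the 6 libraries.

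Enzymes that make or remove AMP, a nucleotide read by the γ subunit, were the last list. Of 9 adenylate kinases and AMP deaminases 6 were tested, with a median of -0.27, and 0 were called. Without adjustment, 2 of the 6 had an edgeR p under 0.05, both lower, against 5.08% of all genes tested. Ak3, a mitochondrial adenylate kinase, had 176, 162 and 166 CPM with metformin, against 198, 200 and 193 CPM with PBS, and the groups did not overlap (log2 fold change -0.23, SE 0.09; edgeR adjusted p = 0.446). Ampd3, an AMP deaminase, had 1.09, 1.84 and 1.05 CPM with metformin, against 2.58, 4.15 and 2.64 CPM with PBS, again without overlap (log2 fold change -1.23, SE 0.39; edgeR adjusted p = 0.378). On TPM its groups overlapped, at 0.493, 0.861 and 1.69 TPM with metformin and 1.82, 1.62 and 1.08 TPM with PBS. Ampd2 was the more abundant deaminase, at 32.0 TPM over the 6 libraries against 1.26 TPM for Ampd3.

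Genes with the most similar profile over the 6 libraries were sought among 9867 protein-coding genes with a mean of at least 5 CPM, by Pearson correlation of log2 CPM. For Prkaa1 they were Zc3h18, Nup160 and Bicral (r = 0.999 each), and for Prkab2 Klhdc2 (r = 0.993), Thoc1 (r = 0.986) and Ccdc43 (r = 0.985). These values describe 6 libraries that share group, depth and length trend, and the profile of Prkaa1 consists largely of its low value in metformin 3.

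Some counts could include reads of neighbours. Strada overlaps Ccdc47 on the same strand, at 79.6 TPM over the 6 libraries, and Prkag1 overlaps the antisense transcript B130046B21Rik, at 6.62 TPM. The sources used here do not say whether counting used strand, so reads of antisense pairs cannot be told apart. Genes that overlap Prkaa1, Prkab1, Prkab2, Prkag2 and Stk11 on the opposite strand averaged at most 2.05 TPM.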

How the data were processed

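Per the labels' protocols, total RNA was purified on RNeasy columns and libraries were prepared by SMART-seq. The submitters' processing notes name DRAGEN, GRCm39 and mm10, with no version or role. The authors deposited estimated counts per gene, which are not whole and not normalized, and TPM values, which they scaled to the same total per library and which keep no depth. The transcript set, strand setting and any filters are not given in the sources used here. Every value column matched a sample (0 unmatched).

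Estimated counts were rounded and tested with edgeR 4.0.16 in R 4.3.3 (filterByExpr, then TMM factors, glmQLFit and glmQLFTest with group alone), which left 15527 genes with a biological coefficient of variation of 27.3%. Benjamini-Hochberg adjustment ran over all of them, with a threshold of 0.05. CPM were computed on TMM-scaled totals. Fold changes are metformin over PBS. SE are those of the edgeR fit. Isoforms were compared on TPM, with a pseudocount of 0.1 where logged, by exact permutation tests. The labels name no molecular identifiers, so counts may include PCR copies. No replicates looked like 1 library deposited again (chi-square of their counts divided by degrees of freedom, 14.8 to 63.9). The fits were tested on simulated data. Other settings used DESeq2 1.42.0 and limma 3.58.1.

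The 10 genes, the lists and the tests were chosen with earlier results of these data known. Named genes were the 10, per pathway list the 2 genes with the smallest p and any that passed, and the 3 genes most like Prkaa1 (the α gene with the higher TPM) and Prkab2 (smallest p). Prkag3, Stradb, Map3k7, Acaca, Acacb, Ampd2, the untested kinases and the overlapping genes were named after their values were seen. A gene that this rule names is not reported here.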

Additional observations from a re-analysis of the deposited data

How the results depend on the processing

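No gene of the 10 was called under any of the settings tried, and the number of all genes called was 0 in the edgeR fit, 299 with DESeq2, 36 with limma-voom and sample quality weights, 3 with the replicate number as a block (replicate block), 1 without the filter on low counts, 1 with the gene length trend removed, and 0 to 1 with a library left out (1 without metformin 3). Same-numbered libraries deviated from their group means with correlations of 0.17, 0.08 and 0.17, and differently numbered ones with -0.24 to 0.08. Each metformin library thus correlated most, though weakly, with the PBS library of its number. The labels do not say that the numbers pair libraries, so the main fit used no pairing. The block changed no call of the 10 genes (edgeR log2 fold change of Prkab2 -0.72, adjusted p = 0.44, of Cab39 -0.31, adjusted p = 0.48). Prkaa1, Prkab2, Prkag2 and Cab39 kept their sign in 19 of 19 other settings. Signs turned for Prkab1 (-0.042 on either TPM scale), Prkag1 (-0.038 on either TPM scale, -0.050 with the length trend removed, -0.0026 to 0.088 with a library left out), Stk11 (-0.0403 on log2(TPM + 0.1), -0.0395 on log2(TPM + 1), -0.013 to 0.15 with a library left out), Strada (0.009 with upper quartile factors, 0.0079 with the length trend removed, -0.10 to 0.033 with a library left out), Camkk2 (0.012 with the length trend removed, -0.20 to 0.026 with a library left out), Camkk1 (0.013 with quality weights, -0.31 to 0.062 with a library left out) and Prkaa2 (0.022 with quality weights, -1.04 to 0.44 with a library left out, 0.44 without PBS 3 and 0.04 without metformin 3); the cause was not tested. The median of all genes tested was itself -0.10 on log2(TPM + 0.1) and -0.085 on log2(TPM + 1). The TPM values of Prkab1, Prkag1 and Stk11 given here lay above that shift. The difference in Prkaa1 share between the groups ran from -0.146 to 0.230 percentage points with a library left out. With 5 libraries the isoform differences cannot pass (smallest exact p = 0.0625), and they ran from 6.73 to 6.94 for α, 4.92 to 5.19 for β and 2.16 to 2.26 for γ on the log2 scale. With another pseudocount or with counts per kilobase they were 4.47 and 7.66 for α, 4.74 and 5.05 for β and 2.17 and 2.72 for γ. Depth limits Prkaa2 most, with 34 estimated reads at its highest. DESeq2 gave Prkaa2 no adjusted p, and a filter of 5 CPM in 3 libraries left it out, so neither setting could call it.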
